A study of Homo sapiens with 21 samples.

Results

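HMLE cells treated with TGFβ for 10 days (d10) were compared with untreated HMLE cells (d0) by RNA-seq, with 3 libraries in each group, 6 of the 21 libraries of the time course. All genes whose mean normalized value over these 6 libraries was at least 10 were included, which gave 13217 genes of the 18367 with a value in any of the 6 libraries and of the 23201 listed. HMLE is a line of human mammary epithelial cells that were immortalized, and TGFβ is a secreted cytokine. The libraries come from one line, seeded at equal density, and the study calls them biological triplicates. The other timepoints were days 1, 4, 7, 15 and 20, of which days 7 and 15 are used below as the neighbours of d10. The TGFβ dose is not given in the sources used here.

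Epithelial cells are joined to each other by cadherins, desmosomes and tight junctions and rest on a basement membrane. TGFβ binds a receptor pair that phosphorylates SMAD2 and SMAD3, and these act with SMAD4 on target genes. In an epithelial to mesenchymal transition (EMT), transcription factors of the SNAI, ZEB and TWIST families are induced and repress junction genes by binding E-box motifs, while cells take up mesenchymal cadherins, vimentin and an extracellular matrix of their own making.

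Normalized values are the authors' gene read counts divided by one size factor per library, and all values below are on that scale unless a log2 difference is named. The reads recovered from them numbered 18847917 to 21700232 in the untreated libraries and 21695744 to 22245237 at d10. Within a group, the root mean square log2 difference between a pair of libraries was 0.20 to 0.22, and errors given as ± SD (n = 3) are small for abundant genes. The mean normalized total was 17.1% higher at d10 than at d0. Rescaling every library to the same total therefore lowered all log2 differences, and their median over all genes went from 0.03 to -0.20. The basal mammary markers KRT5, KRT14, TP63, ITGA6 and ITGB4 were all detected, with a summed value of 311787 to 331416 at d0 and 235233 to 238091 at d10. The 5 did not move together. KRT5, the most abundant of them, was lower at d10, as were KRT14 and TP63, while ITGA6 and ITGB4 were higher. Their log2 fold changes ranged from -1.15 to 1.57. Of the 10 luminal markers, PGR and ELF5 had at most 3 reads in every library, as did CDH5 among the 5 endothelial and PTPRC and CD3E among the 6 immune markers. The 7 fibroblast markers, which mesenchymal cells also express, summed to 1876 to 1917 at d0 and 8991 to 9411 at d10. In RNA from whole cultures, a change in the share of cells and a change in RNA per cell cannot be told apart.

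The d10 libraries differed widely from the untreated ones. In limma's test on log2(value + 1), at a Benjamini-Hochberg adjusted p under 0.05, 5237 genes (39.6% of those tested) were higher at d10 and 4422 (33.5%) were lower. At 2-fold or more, 881 genes (6.67%) were higher and 995 (7.53%) were lower. Each count of list members below is to be read beside these shares of all genes. At least 8-fold differences were found for 150 genes higher and 137 lower. After rescaling, 677 genes were higher and 1358 lower at 2-fold, and 3106 and 7123 without a minimum size. None of the 1876 genes called at 2-fold changed sign under that scaling. The median shift was only 0.23 on the log2 scale, too small to turn a 2-fold difference, so this outcome was fixed in advance.

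**Figure D1:**
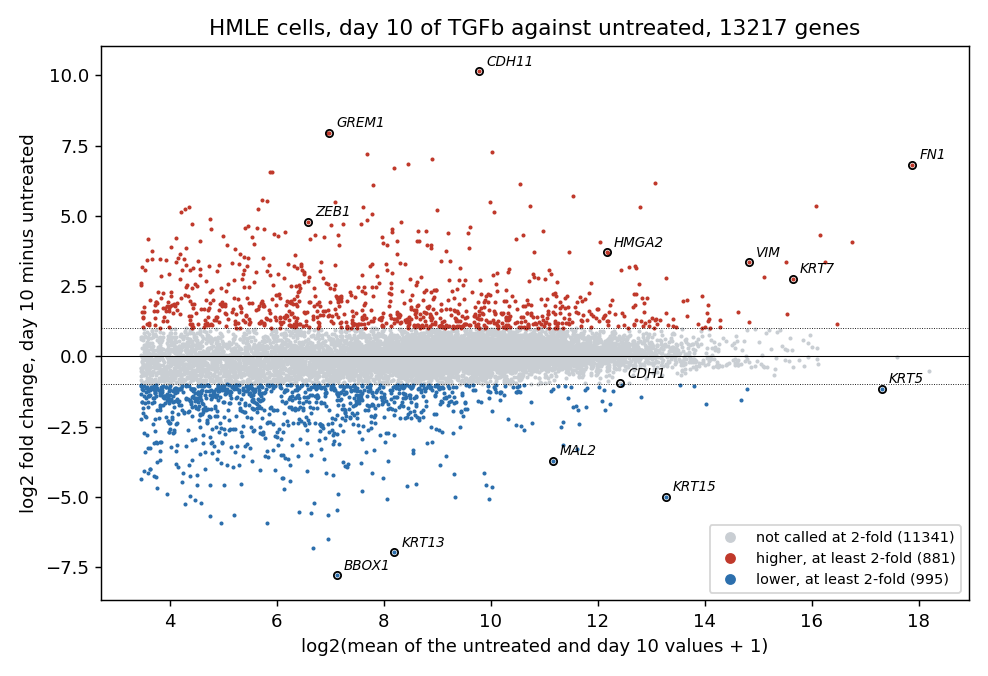
Log2 fold change of each of the 13217 genes tested (day 10 minus untreated, y axis) against the log2 of its mean value (x axis), with genes called at 2-fold in red (881 higher) and blue (995 lower) and dotted lines at a 2-fold change. FN1 sits at the far right among the highest values and rose, while CDH11 has the largest increase and BBOX1 the largest decrease.

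The 12 largest increases among genes whose mean reached 50 in either group were CDH11, GREM1, POSTN, SCG5, WNT5B, NTM, COL22A1, FN1, HECW2, ACAN, MYO7B and TGM2. Several encode matrix or secreted proteins: POSTN is a matricellular protein, COL22A1 a collagen, ACAN the proteoglycan aggrecan and TGM2 a transglutaminase that crosslinks matrix. TGM2 had values of 247, 218 and 229 in the untreated libraries and 16922, 17221 and 16609 at d10, a log2 fold change of 6.19 (standard error 0.04). SCG5, a secretory granule chaperone, went from 12.8 ± 4.29 to 2068 ± 35.5. NTM, a GPI-anchored neural adhesion protein, went from 6.39 ± 1.77 to 948 ± 8.71, and the ubiquitin ligase HECW2 from 4.53 ± 0.846 to 578 ± 37.9. ACAN and MYO7B, an unconventional myosin, had at most 3 reads in each untreated library and were at least 42.1-fold and 43.3-fold higher at d10.

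The 12 largest decreases were in BBOX1, KRT13, ALDH3B2, EPHB6, SLC27A2, PRR15L, DSG1, PSAPL1, SPRR1A, ZNF750, BLNK and CXCL14. BBOX1, the last enzyme of carnitine synthesis, had values of 303, 277 and 249 at d0 and 0, 0.97 and 0 at d10, at least 93.8-fold lower. ZNF750, a transcription factor of epidermal differentiation, went from 193 ± 23.2 to 4.87 ± 4.46. ALDH3B2, an aldehyde dehydrogenase, was at least 68.4-fold lower, the fatty acid transporter SLC27A2 at least 20.5-fold and the desmosomal cadherin DSG1 at least 17.5-fold. In all, 39 genes were detected at d0 and at the floor of 3 reads in every d10 library, and 25 were at the floor at d0 only. These bounds cover counting error only.

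Of the 14 EMT transcription factors listed, 12 were tested (SNAI1 and PRRX1 were under the filter), 10 were higher and 1 lower, and 8 of the 12 were higher at least 2-fold, beside 6.67% of all genes tested. ZEB1, a zinc-finger repressor of epithelial genes, had values of 6.23, 5.94 and 4.95 in the untreated libraries and 175, 204 and 175 at d10. Its log2 fold change was 4.79 (limma, standard error 0.19, Benjamini-Hochberg adjusted p = 1.14e-15). HMGA2, a chromatin protein that TGFβ induces upstream of SNAI1 and TWIST1, went from 665, 656 and 639 to 8614, 8187 and 8817. FOXC2 rose from 3.01 ± 0.362 to 40.9 ± 5.05 and TWIST2 had 46.3, 56.8 and 62.3 at d0 and 303, 328 and 291 at d10. SNAI2 was already at 1248 ± 83.99 in untreated cells and rose to 6031 ± 201, and TWIST1 rose from 98.6 ± 13.6 to 195 ± 9.08, a log2 fold change of 0.98. FOXQ1, ZEB2, SOX4 and TCF4 had log2 fold changes of 1.58, 1.56, 1.52 and 0.56. KLF8 was the exception in direction and fell from 405 ± 27.9 to 235 ± 13.4.

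Of 17 epithelial transcription factors and splicing regulators, 16 were tested, ELF5 being under the filter, and 15 were lower at d10, 8 of them at least 2-fold, beside 7.53% of all genes. GRHL3, a grainyhead factor of epidermal barrier formation, had values of 131, 125 and 133 at d0 and 5.97, 6.80 and 3.91 at d10, a log2 fold change of -4.34 (limma, standard error 0.22, adjusted p = 8.95e-14). ELF3, an epithelial ETS factor, went from 227 ± 18.6 to 12.1 ± 3.31. The related GRHL1 and GRHL2 fell from 151 ± 14.8 to 18.97 ± 3.35 and from 1727 ± 67.8 to 585 ± 6.77. OVOL1, a repressor of EMT factors, fell from 236 ± 9.98 to 26.8 ± 6.26, while OVOL2 differed by -0.38 on the log2 scale and was no longer past the threshold without untreated library 1 (-0.32) or without d10 library 2 (-0.27). TFAP2C, RBM47 and EHF had log2 fold changes of -2.71, -2.69 and -1.80. The splicing regulators ESRP1 and ESRP2, which set epithelial exon choice, fell to 2437 ± 68.02 and 1156 ± 20.2, log2 fold changes of -0.72 and -0.74. Smaller decreases were measured for KLF5 (-0.62), TFAP2A (-0.32) and the basal factor TP63 (-0.29). KLF4 alone was higher, at 494 ± 32.1 against 306 ± 23.2.

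**Figure D2:**
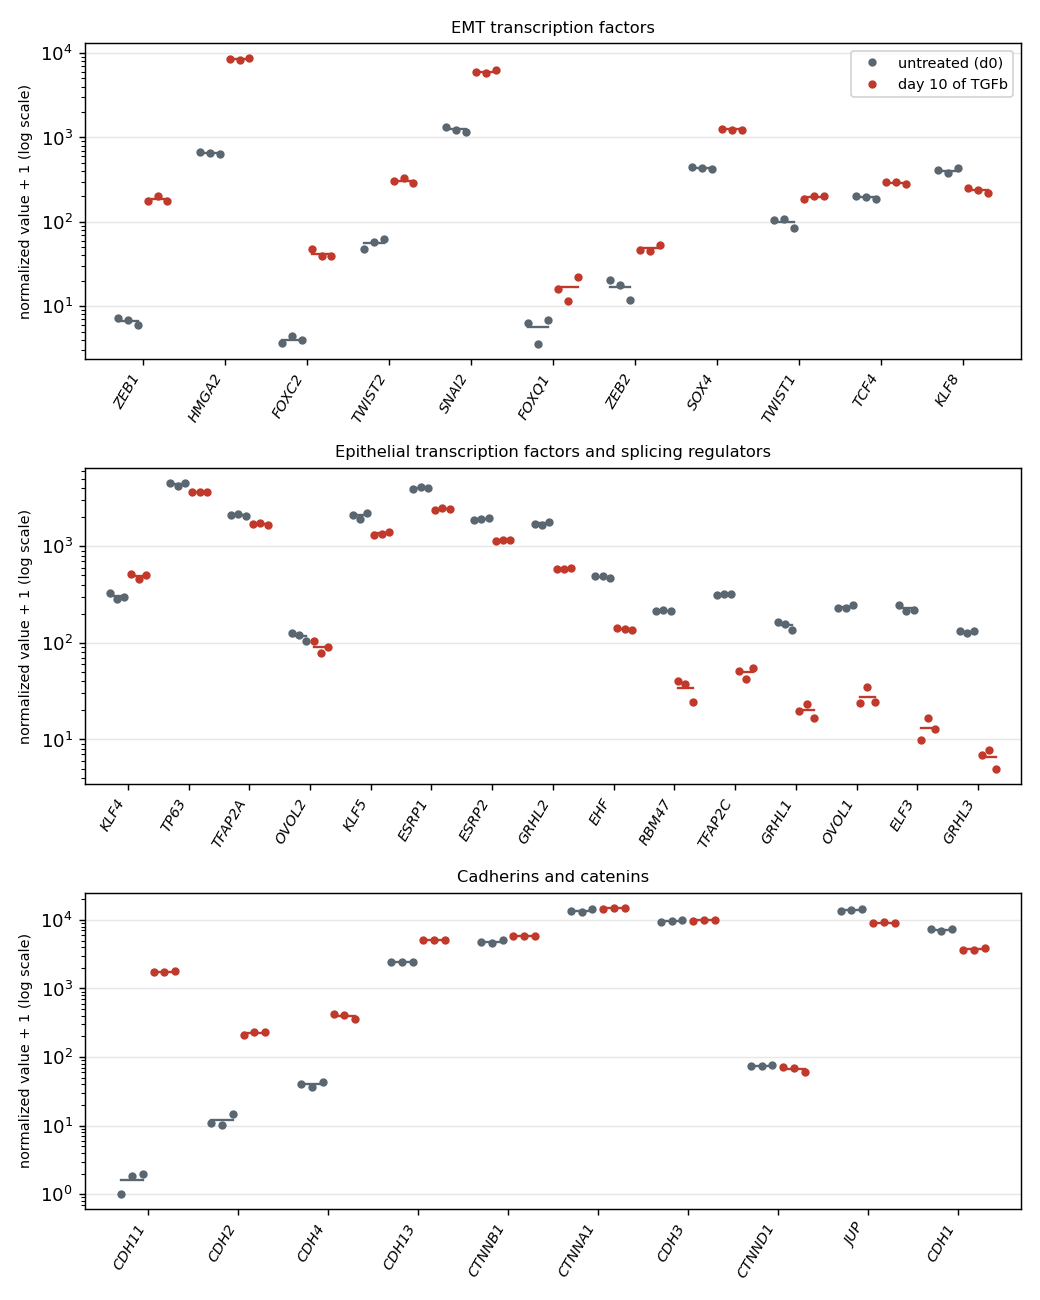
Normalized value plus 1 on a log axis for EMT factors (top), epithelial factors and splicing regulators (middle) and cadherins and catenins (bottom), with 1 point per library (grey untreated, red day 10) and a line at each group's mean. ZEB1 and HMGA2 lie far above their untreated libraries, GRHL3 and ELF3 far below, and CDH11 leaves the floor while CDH1 is between 3618 and 3855 at day 10.

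All 10 cadherins and catenins listed were tested, of which 6 were higher and 2 lower, or 5 and 5 after every library was rescaled to 1 total. CDH11, a mesenchymal cadherin, was at the floor in untreated cells (0, 0.85 and 0.99) and reached 1740, 1732 and 1810 at d10, at least 645-fold higher. CDH2, N-cadherin, had 9.79, 9.33 and 13.8 at d0 and 211, 234 and 228 at d10, and CDH4 rose from 39.4 ± 3.51 to 398 ± 33.95. CDH13, a GPI-anchored cadherin, rose from 2435 ± 24.9 to 5069 ± 14.3. CDH1, E-cadherin, fell from 7314, 6946 and 7324 to 3618, 3689 and 3855, a log2 fold change of -0.95 (standard error 0.03). P-cadherin CDH3 was at 9611 ± 221 and 9947 ± 149.5 (limma, adjusted p = 0.105), and without untreated library 3 its log2 fold change of 0.07 passed the threshold. JUP, plakoglobin, fell by 0.61 on the log2 scale, CTNNB1 rose by 0.31 and CTNNA1 by 0.13, the last turning to -0.09 with each library rescaled. CTNND1 was listed at only 74.02 ± 2.05 and 65.8 ± 6.300 and did not pass the test. Of the 10 desmosome genes, a list without DSG1, 7 were lower and 3 higher (8 and 1 after rescaling). DSG3, the basal desmoglein, fell from 7312 ± 371 to 2263 ± 96.6, PERP fell from 15921 ± 184 to 7766 ± 251 and DSC3 from 7318 ± 218 to 3660 ± 49.5. DSP, desmoplakin, fell by 0.39 on the log2 scale, and PKP3 rose by 0.33.

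Of 17 tight junction and polarity genes listed, 15 were tested (CLDN3 and PATJ were not), 12 were lower and 1 higher, with 9 lower at least 2-fold and a median log2 fold change of -1.47. CLDN1, a strand-forming claudin, had values of 1321, 1195 and 1244 at d0 and 48.8, 34.0 and 32.3 at d10, a log2 fold change of -5.02 (limma, standard error 0.11, adjusted p = 7.12e-20). TJP3, a scaffold of the junction plaque, went from 42.3 ± 1.07 to the floor, at least 14.4-fold lower. CRB3, the crumbs protein of the apical membrane, had 198, 215 and 212 at d0 and 41.8, 37.9 and 37.2 at d10. The scaffold TJP1 was the member that rose, from 2874 ± 45.2 to 5101 ± 158, and F11R fell by 0.09 on the log2 scale, a difference that missed the threshold without d10 library 1 (-0.07) or d10 library 3 (-0.07).

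The E-box CACCTG, or CAGGTG on the other strand, is the motif that SNAI and ZEB proteins bind. As a description, promoters of the epithelial factor, cadherin and tight junction lists were searched for it. In the RefSeq windows of 250 bases before to 50 bases after each start, 20.6% of the 35116 promoters of all genes held at least 1 copy and 0.635% held 3 or more. Of the tight junction and polarity genes, 12 of 17 matched by symbol, and 8 of their 18 promoters held a copy, 3 of them 3 or more (PATJ, CLDN7 and CRB3), a list added to the search after its values were seen. The epithelial factors had 4 of 17 promoters with a copy (10 of 17 genes matched) and the cadherins and catenins 2 of 11 (5 of 10 genes matched), none with 3 or more. Promoters of CDH1, CDH11, OVOL1, OVOL2, GRHL2, ESRP1 and ESRP2 were not among the windows, so they were not searched. The 250 bases before the start are shown for CRB3 and CLDN7, the tested members with the most copies, which were picked after the search. They lie at chr19:6464021-6464270 on the plus strand and chr17:7262479-7262728 on the minus strand of GRCh38.p14, with the E-boxes in capitals, 5 in CRB3 and 4 of the 5 of CLDN7.
CRB3: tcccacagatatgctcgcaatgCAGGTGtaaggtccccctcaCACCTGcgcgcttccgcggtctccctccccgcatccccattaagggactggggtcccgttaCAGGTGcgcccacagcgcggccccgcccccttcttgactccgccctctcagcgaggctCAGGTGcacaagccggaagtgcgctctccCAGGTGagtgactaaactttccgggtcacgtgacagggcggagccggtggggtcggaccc
CLDN7: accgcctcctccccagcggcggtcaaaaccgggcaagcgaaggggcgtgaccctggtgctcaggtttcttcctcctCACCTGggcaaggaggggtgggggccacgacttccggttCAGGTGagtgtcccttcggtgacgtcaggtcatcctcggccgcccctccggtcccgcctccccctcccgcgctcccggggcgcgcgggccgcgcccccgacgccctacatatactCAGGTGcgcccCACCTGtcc
CLDN7 itself fell from 74.5 ± 6.88 to 40.9 ± 6.799, a log2 fold change of -0.86 beside -2.39 for CRB3. A match of letters is a description and says nothing about binding in these cells.

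Of 11 epithelial surface proteins and proteases tested (MUC16 was under the filter), 8 were lower and 1 higher, 7 of them lower at least 2-fold. MAL2, a raft protein of apical transport, went from 4408, 4138 and 4219 to 292, 346 and 337, and EPCAM from 2106 ± 52.4 to 454 ± 25.6. The mucin MUC1 fell from 63.5 ± 2.89 to 16.04 ± 2.21. CDCP1, a transmembrane SRC substrate, rose from 1408 ± 75.5 to 2452 ± 23.3.

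Keratins form the intermediate filaments of epithelia, and pairs of them mark layers and lineages. Of 16 keratins tested, 13 were lower and 2 higher, and the 17 listed held 2.20% to 2.30% of all reads at d0 and 1.53% to 1.56% at d10. KRT15, found in basal and progenitor layers, had 19251, 18940 and 19362 at d0 and 651, 554 and 601 at d10, a log2 fold change of -4.99 (limma, standard error 0.04, adjusted p = 1.35e-27). KRT13, of stratified mucosa, fell from 582 ± 36.2 to 3.94 ± 2.02, and KRT23 was at least 11.8-fold lower. KRT5, a basal keratin, fell from 224349 ± 8441 to 101276 ± 1081. Its basal partner KRT14 was 72774 ± 2088 and 68590 ± 1600, a log2 difference of -0.09 (limma, adjusted p = 0.0109) that was no longer past the threshold without untreated library 2 (-0.07) or without d10 library 1 (-0.08) or 3 (-0.07). KRT7, a simple-epithelial keratin, went the other way, from 12974, 12828 and 13559 to 92798, 85612 and 90072, and KRT6A rose from 25873 ± 881 to 46308 ± 245. KRT18 was 7357 ± 352 and 7212 ± 195 (limma, adjusted p = 0.45) and KRT8 fell by 0.67 on the log2 scale. Reads of the KRT6 genes, and of KRT14, KRT16 and KRT17, can be shared among near copies.

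Among 24 squamous differentiation genes tested of 29 listed, 22 were lower and 1 higher, 19 lower at least 2-fold, with a median log2 fold change of -2.77. SPRR1A, a cornified envelope precursor whose family shares sequence, had 244, 243 and 239 at d0 and 2.99, 3.89 and 4.89 at d10. KLK7, a protease of skin shedding, fell from 516 ± 15.1 to 16.4 ± 10.04, with 26.9, 15.6 and 6.84 in the d10 libraries. SPRR2D fell from 50.5 ± 12.1 to 1.65 ± 2.08, and the protease inhibitor CSTA from 3440 ± 61.1 to 2017 ± 39.04. IVL, involucrin, also an envelope precursor, was the member that rose, from 89.9, 113 and 125 to 629, 693 and 723.

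The 95 matrix genes of 4 lists held 0.925% to 0.970% of all reads at d0 and 6.93% to 7.20% at d10, an increase larger than the spread between libraries of either group. FN1, fibronectin, accounted for 2.16% to 2.29% of the d10 reads, against 0.0223% to 0.0244% at d0. Its values were 4451, 4110 and 4168 at d0 and 465984, 496034 and 474206 at d10, a log2 fold change of 6.82 (limma, standard error 0.03, adjusted p = 7.19e-32). FN1 alone made up 15.1% of the net gain in normalized total between d0 and d10, and THBS1 and TGFBI made up 4.21% and 4.06%. The 12 genes with the largest gains, ranked after their values were seen, made up 46.6%, with LAMA3, KRT7, ACTB, LAMB3, VIM, MT2A and S100A2 among them. The largest losses were in KRT5 and the translation factor EEF1A1, from 353639 ± 1335 to 247396 ± 2898.

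LAMA3 and LAMB3, chains of a laminin that anchors basal epithelial cells to their basement membrane, both rose. LAMA3 had 8804, 8245 and 8058 at d0 and 84784, 88274 and 83790 at d10, and LAMB3 went from 8723 ± 179 to 62444 ± 1449. Their log2 fold changes were 3.36 and 2.84. Of 18 basement membrane genes tested, 10 (55.6%) were higher and 7 (38.9%) lower, beside 39.6% and 33.5% of all genes, or 10 and 8 after rescaling. At least 2-fold higher were 6 (33.3%), beside 6.67% of all genes. Among the lower ones were the laminin chain LAMA5, from 4623 ± 151 to 2900 ± 103, and the proteoglycan HSPG2, perlecan, from 2685 ± 334 to 1988 ± 212. The laminin chain LAMA2 differed by -0.47 on the log2 scale and missed the threshold without untreated library 1 (-0.41) or without d10 library 1 (-0.39).

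Of 12 interstitial collagens tested, 11 were higher and 8 at least 2-fold. COL1A1, the main chain of type I collagen, had 449, 457 and 479 at d0 and 3791, 4089 and 3829 at d10. COL6A3 rose from 5.37 ± 2.93 to 266 ± 18.4, COL8A1 from 26.3 ± 5.74 to 995 ± 37.3 and COL16A1 from 3662 ± 68.01 to 5342 ± 153. COL1A2, the partner of COL1A1, had 2.67, 2.54 and 3.96 at d0 and 72.7, 69.0 and 46.0 at d10.

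Of 22 matricellular and microfibril genes tested of 28 listed, a list that also holds CDH11, 18 were higher and 16 at least 2-fold, with a median log2 fold change of 2.42. POSTN, periostin, had 0 reads in each untreated library and values of 249, 225 and 266 at d10, at least 90.5-fold higher. The exceptions were MATN2, from 111 ± 13.4 to 17.97 ± 2.79, EFEMP1, from 2577 ± 47.2 to 1603 ± 33.6, THBS2, from 25.4 ± 7.59 to 15.05 ± 1.42, and BGN, from 65.8 ± 12.5 to 41.2 ± 4.33. THBS2 missed the threshold without untreated library 3 (-0.47) or d10 library 3 (-0.62).

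Among 28 matrix-modifying enzymes and inhibitors tested of 33 listed, 26 were higher, 18 at least 2-fold. ADAM19, a membrane metalloprotease, rose from 109.5 ± 3.47 to 5834 ± 79.7. MMP9, a gelatinase, rose from 39.8 ± 6.53 to 2938 ± 875, with d10 libraries at 2730, 3899 and 2186. The 2 that fell were SULF1, from 217 ± 9.897 to 74.6 ± 5.85, and PLAT, from 293 ± 21.4 to 123 ± 9.27.

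**Figure D3:**
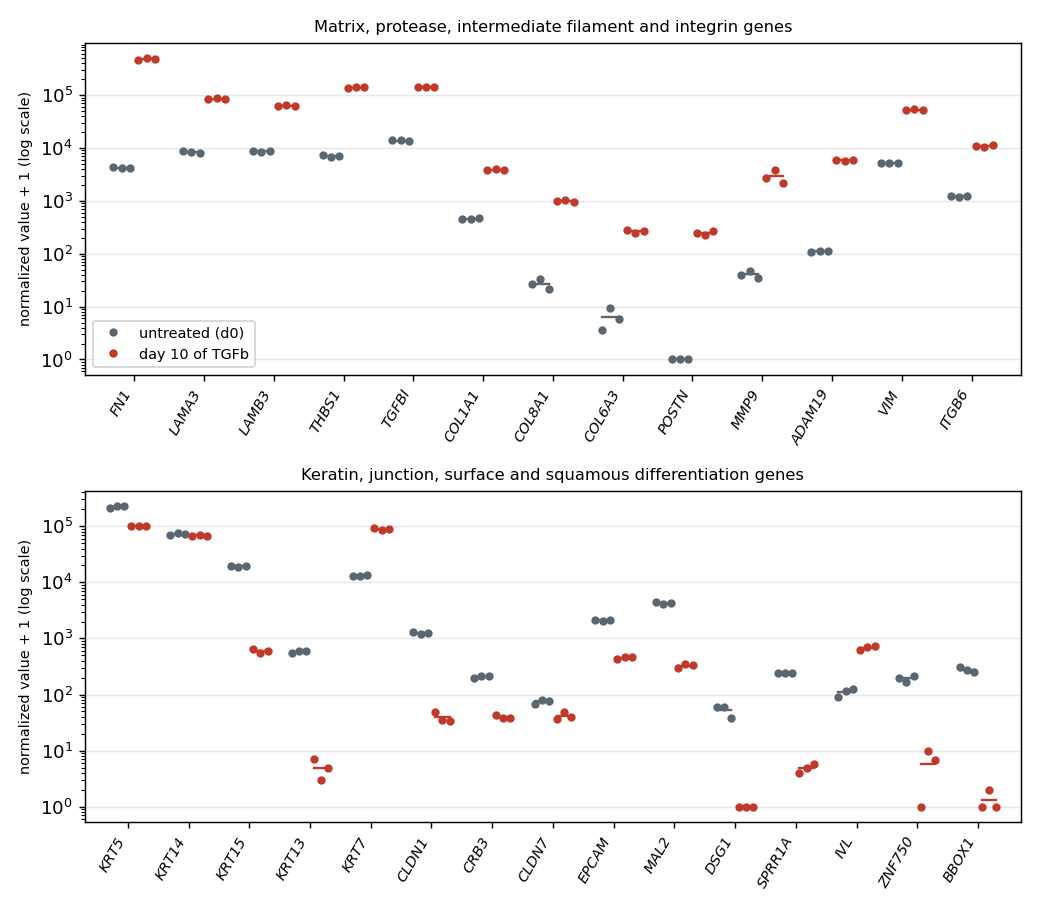
Normalized value plus 1 on a log axis for matrix, protease, VIM and ITGB6 genes (top) and for keratin, junction, surface and squamous genes (bottom), with 1 point per library (grey untreated, red day 10) and a line at each mean. Every gene of the top panel is higher at day 10, and in the bottom panel KRT7 and IVL are higher while KRT15, KRT13, CLDN1 and BBOX1 are lower.

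Of 15 integrin subunits tested, 13 were higher, 10 at least 2-fold, and 2 were lower. ITGB6, the subunit of the integrin that activates latent TGFβ, rose from 1222, 1199 and 1232 to 11109, 10607 and 11484. The laminin receptor chains ITGA6 and ITGB4 rose from 8586 ± 178 to 25314 ± 161 and from 12714 ± 150.1 to 37728 ± 599, ITGA2 from 1297 ± 85.6 to 4960 ± 140.3 and ITGB3 from 2.71 ± 0.835 to 27.2 ± 2.43. The common β chain ITGB1 rose to 41901 ± 459. ITGB8, whose integrin also activates TGFβ, fell from 789 ± 50.2 to 189 ± 15.8, and ITGA7 from 37.3 ± 2.38 to 7.503 ± 3.09. Of 21 contractile and actin crosslinking genes, 16 were higher and 7 at least 2-fold. VIM, vimentin, was among them, with 5215, 5231 and 5097 at d0 and 53111, 53721 and 52325 at d10. TAGLN and TPM1, of smooth muscle and stress fibres, had log2 fold changes of 1.74 and 1.54, and TPM2 fell by 0.26.

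Of 19 TGFβ ligands, latency proteins and receptors tested, 10 (52.6%) were higher and 7 (36.8%) lower, or 9 and 9 after rescaling. Over all genes the shares were 39.6% and 33.5%. INHBA, the activin A subunit, rose from 308, 252 and 299 to 2185, 2525 and 2141, and LTBP2, a latent TGFβ binding protein, from 657 ± 4.32 to 4165 ± 39.7. The co-receptors diverged, ENG rising from 717 ± 27.8 to 1536 ± 17.9 and TGFBR3, betaglycan, falling from 67.7 ± 9.81 to 22.9 ± 5.66. The ligand TGFB3 was at 31.6 ± 2.69 and 15.7 ± 4.39. Among 16 SMADs and feedback genes tested, 9 (56.25%) were higher and 3 (18.75%) lower, or 6 and 7 after rescaling. PMEPA1, which sequesters receptor SMADs, went from 340, 329 and 376 to 13949, 13650 and 13805, SMAD7, the inhibitory SMAD, from 108 ± 9.23 to 543 ± 25.8, and the ubiquitin ligase SMURF2 from 830.2 ± 35.7 to 2449 ± 70.1. SMAD9 fell from 47.9 ± 2.200 to 25.8 ± 3.12 and SMAD1 by 0.18 on the log2 scale. TGIF2, a corepressor, fell by 0.14, which missed the threshold without untreated library 3 (-0.11) or d10 library 3 (-0.12).

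Of 11 genes tested among BMP ligands, antagonists and ID genes, 9 were higher and 6 at least 2-fold. GREM1, gremlin 1, had 0 reads at d0 and values of 250, 246 and 253 at d10, at least 91.5-fold higher. Noggin, NOG, rose from 3.83 ± 1.99 to 86.7 ± 4.19, follistatin, FST, from 115 ± 7.79 to 666 ± 32.6 and FSTL3 from 1364 ± 67.7 to 5609 ± 154.

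Of 23 ERBB, FGF and PDGF genes tested, 12 (52.2%) were higher and 9 (39.1%) lower, beside 39.6% and 33.5% of all genes. ERBB3, the neuregulin receptor, fell from 1070, 1042 and 1058 to 79.6, 95.2 and 95.8, and FGFR3 from 4670 ± 223 to 526 ± 17.8, while FGFR1 rose from 22.9 ± 5.66 to 72.3 ± 3.68. The EGFR ligand AREG rose from 38.5 ± 1.71 to 214 ± 20.3, FGF5 from 271 ± 7.04 to 876 ± 26.97, and the receptor AXL from 2844 ± 81.1 to 8385 ± 46.2. The ligand BTC fell from 17.6 ± 3.87 to 6.51 ± 4.79. Of 21 WNT and NOTCH genes tested, 12 (57.1%) were higher and 5 (23.8%) lower. WNT5B went from 0.89, 0.85 and 4.95 to 411, 418 and 390, whereas WNT4 fell from 274 ± 4.06 to 8.18 ± 0.673 and WNT10A from 249 ± 9.59 to 12.4 ± 1.02. WNT7A and WNT3 had log2 fold changes of 1.91 and 1.79. The receptor NOTCH3 fell from 2013, 2087 and 1940 to 81.6, 78.7 and 75.3, and NOTCH2 rose by 0.35 on the log2 scale. Of the 10 stem-like and surface markers tested, 6 (60%) were higher and 4 (40%) lower, or 5 and 4 after rescaling. NT5E (CD73) rose from 1306 ± 29.5 to 12017 ± 231, THY1 from 1375 ± 33.9 to 4700 ± 61.7 and CD44 from 11610 ± 206 to 23433 ± 182. NGFR fell from 244 ± 25.7 to 64.1 ± 6.16, and CD9 and ALDH1A3 fell by 0.31 and 0.25 on the log2 scale. In the axon guidance families, 12 of 24 were higher (50%) and 11 lower (45.8%), again beside 39.6% and 33.5% of all genes, with SEMA7A up from 99.6 ± 13.7 to 1440 ± 90.9 and the receptor EPHB6 down from 239, 238 and 256 to 3.98, 0 and 2.93. Of 11 IGF genes tested, IGFBP3 rose from 42.6 ± 4.51 to 1982 ± 64.9 and IGFBP2 fell from 1858 ± 14.1 to 76.3 ± 7.59.

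DNA replication and mitosis genes mostly changed by less than 2-fold. Of 36 DNA replication genes, 20 (55.6%) were higher and 7 (19.4%) lower at d10, or 11 and 18 after rescaling. Of 34 mitosis genes, 6 (17.65%) were higher and 24 (70.6%) lower, or 0 and 29 after rescaling. Over all genes the shares were 39.6% higher and 33.5% lower. The median log2 fold changes of the replication and mitosis lists were 0.15 and -0.18, and among all 70 genes the E2F2 change of -1.35 was the sole one past 2-fold. UHRF1, a maintenance methylation factor, rose from 1763 ± 82.8 to 3189 ± 122, and CDC25C, the mitotic phosphatase, fell from 1163 ± 82.6 to 744 ± 26.8. CCND1, cyclin D1, rose from 1284, 1304 and 1451 to 5487, 5191 and 5246 and CDK6 from 1538 ± 85.6 to 3275 ± 59.04. Among the CDK inhibitors, CDKN1C, CDKN2B and CDKN2C had log2 fold changes of -2.57, -0.88 and -0.83. The list of these 2 kinds of genes and MYC had 16 members tested, 8 (50%) higher and 8 (50%) lower, or 5 and 9 after rescaling. Its median log2 fold change was -0.01. Among 16 p53 targets, 5 (31.25%) were higher and 8 (50%) lower, beside 39.6% and 33.5% of all genes. They ranged from TP53I3 (1.93) and SFN (1.28) to FDXR (-1.12) and the stress cytokine GDF15 (-1.56).

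Of 18 AP-1 and immediate early genes, 10 (55.6%) were higher and 4 (22.2%) lower, beside 39.6% and 33.5% of all genes (7 and 8 members after rescaling). JUN rose from 563, 537 and 485 to 3611, 3693 and 3470, the ERK phosphatase DUSP6 from 464 ± 94.01 to 2920 ± 89.3 and FOSL1 from 417 ± 146 to 2082 ± 76.2, and EGR3 fell from 74.8 ± 40.1 to 21.3 ± 2.72. Of 14 Hippo pathway members and targets, 9 were higher and 0 lower (limma), or 7 and 5 after rescaling. The other 5, the pathway members YAP1, WWTR1, TEAD2, TEAD3 and LATS1, had log2 differences from -0.06 to 0.06 that missed the threshold. F3, tissue factor, rose from 1184 ± 126 to 9874 ± 379. Interferon-stimulated genes were mostly lower, 21 of 32 tested and 12 of them at least 2-fold, against 5 higher, with IFI44L falling from 48.1, 51.7 and 64.3 to 7.96, 8.75 and 7.82, USP18 from 101 ± 8.66 to 18.3 ± 2.67 and HERC5 from 61.3 ± 7.15 to 16.7 ± 4.83. ISG20, an exonuclease, rose from 54.7 ± 1.95 to 275 ± 17.4. Of 15 MHC class I genes, 9 were lower and 3 higher, all by less than 2-fold, led by NLRC5 (-0.84) and TAP1 (-0.75). Of 29 cytokines and acute phase genes tested, 11 (37.9%) were higher and 13 (44.8%) lower, beside 39.6% and 33.5% of all genes. CSF2 and CSF3, colony stimulating factors, rose from 3.62 ± 1.51 to 103 ± 17.9 and from 33.8 ± 0.933 to 764 ± 20.4, the chemokine CXCL1 from 20.6 ± 5.895 to 159 ± 23.7 and IL1A from 1291 ± 132 to 4310 ± 150.0. CXCL14 fell from 286, 261 and 271 to 3.98, 4.86 and 6.84, IL1RN from 299 ± 13.3 to 20.3 ± 2.87 and complement factor CFB from 154 ± 10.1 to 12.4 ± 2.51.

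Of 76 ribosomal protein genes tested, 69 were lower and 2 higher, with a median log2 fold change of -0.23, and ribosomal protein reads were 7.37% to 7.55% of the total at d0 and 5.30% to 5.41% at d10. The nuclear RNAs MALAT1 and NEAT1 fell as well, by 0.96 and 1.11 on the log2 scale, and with KCNQ1OT1 they held 0.0371% to 0.0437% of reads at d0 and 0.0159% to 0.0172% at d10. The part of RNA quality in these differences was not tested. Of 41 oxidative phosphorylation subunits, 32 were lower, none by 2-fold, with a median log2 fold change of -0.21 over the list, and ATP5B and NDUFB5 were at -0.32 and -0.50. Of 24 endoplasmic reticulum folding genes, 22 were higher (20 after rescaling, with 3 lower), including the chaperone HSPA5, from 10590 ± 313 to 21242 ± 441, and the collagen-export coat subunit SEC24D, from 906 ± 28.5 to 2111 ± 60.5. Of 24 cholesterol genes, 15 (62.5%) were higher and 6 (25%) lower, beside 39.6% and 33.5% of all genes (11 and 9 members after rescaling). SQLE was at 0.66 and TM7SF2 at -2.54 on the log2 scale. Of 16 fatty acid synthesis genes, 11 (68.75%) were higher and 3 (18.75%) lower, or 7 and 6 after rescaling. The fatty acid desaturases FADS1, FADS2 and FADS3 had log2 fold changes of 0.96, 0.90 and 0.91, and the lowest value in the list was -1.76. Of 30 glycolysis and hypoxia genes, 18 (60%) were higher and 5 (16.7%) lower, or 12 and 11 after rescaling. Among them, the hypoxia marker CA9 fell from 1781 ± 37.2 to 99.4 ± 7.86. GAPDH was 198246 ± 2734 and 197674 ± 1096 (limma, adjusted p = 0.901). Among 25 ATF4 and amino acid genes 15 were lower and 6 higher, including SLC7A5, the leucine transporter, from 49130 ± 1566 to 31198 ± 378. Among 19 antioxidant genes tested, 11 were lower, with AKR1B10 at -3.33 and GCLC, of glutathione synthesis, at -1.48, and HMOX1 rose by 1.21. Of 6 metallothioneins tested, 5 were higher, MT2A rising from 24833 ± 2298 to 70483 ± 2621, although their reads can be shared.

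**Figure D4:**
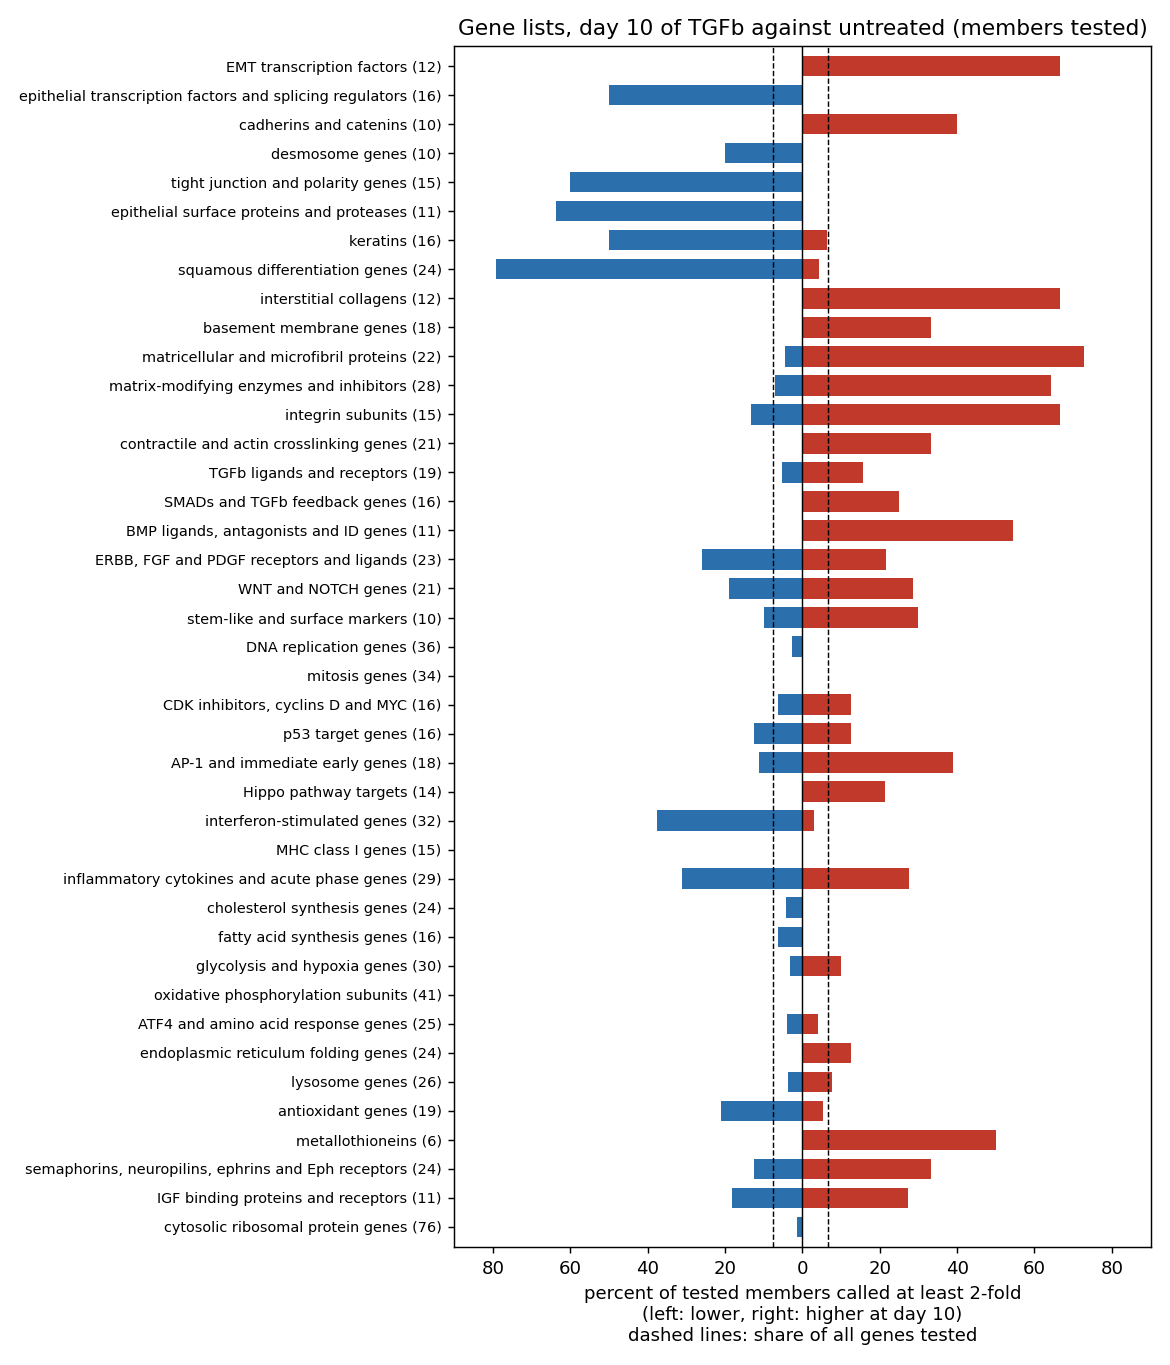
Percent of the tested members of each gene list (number tested in brackets) called at least 2-fold higher (right, red) or lower (left, blue) at day 10, with dashed lines at the shares over all genes tested, 6.67% higher and 7.53% lower. Matrix, integrin and EMT factor lists extend right, squamous, surface, junction and keratin lists extend left, and mitosis, MHC class I and oxidative phosphorylation lists have no bar.

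Day 10 also differed from its neighbours in time. Against d7, 485 genes of 13343 tested (3.63%) were at least 2-fold higher at d10 and 1213 (9.09%) lower, and against d15, 1367 (10.2%) were higher and 1596 (12%) lower (limma on all 21 libraries, adjusted p under 0.05). Library 3 of d7 stood apart from the other d7 libraries (root mean square difference 0.47 and 0.48 on the log2 scale, 0.22 between the others), and without it the counts against d7 were 699 higher and 1449 lower. In all 3 comparisons, with d0, d7 and d15, 165 genes were at least 2-fold higher at d10 and 472 lower, or 180 and 493 without that d7 library. Of the 165, 111 also had a d10 mean above those of days 1, 4 and 20, and of the 472, 425 had one below.

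The genes that stood highest at d10 against d0, d7 and d15 were HAS2, CSF3, TMEM200A, CCL21, NAV3, NES, APLN and SH2D2A. HAS2, a hyaluronan synthase, was at 0 in each untreated library, at 1.06, 1.04 and 2.79 at d7, at 42.8, 32.1 and 36.2 at d10 and at 2.04, 3.62 and 3.11 at d15. CSF3 had 67.5, 50.04 and 55.8 at d7, 757, 787 and 748 at d10 and 93.9, 77.8 and 76.7 at d15. APLN, the ligand of the apelin receptor, was at 169 ± 5.98 at d10 and at 23.2 ± 2.08, 20.4 ± 3.03 and 9.74 ± 5.01 at d0, d7 and d15. SH2D2A, an adaptor protein, had 34.8, 43.8 and 168 at d7. The day 1 mean of SH2D2A, 440, and the day 20 mean of NES, 37.4, were at or above those at d10 (438 and 33.7).

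The genes that stood lowest were PRODH, USH1G, BLNK, NOTCH3, MAP7D2, BEST2, EDN2 and SGPP2. PRODH, the first enzyme of proline breakdown, had 530, 514 and 62.4 at d7, 5.97, 4.86 and 2.93 at d10 and 551, 535 and 574 at d15, after 200.4 ± 5.58 at d0. NOTCH3 had 2973, 2634 and 609 at d7, 78.5 ± 3.16 at d10 and 1281 ± 42.4 at d15. SGPP2, a sphingosine phosphate phosphatase, was at 635, 574 and 242 at d7, 30.8 ± 2.08 at d10 and 487 ± 23.6 at d15. In each of the 8 d7 library 3 was the lowest of the 3 at d7. Their day 1 and day 20 means, such as 590 and 246 for NOTCH3, were lower than those of d0, d7 and d15.

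**Figure D5:**
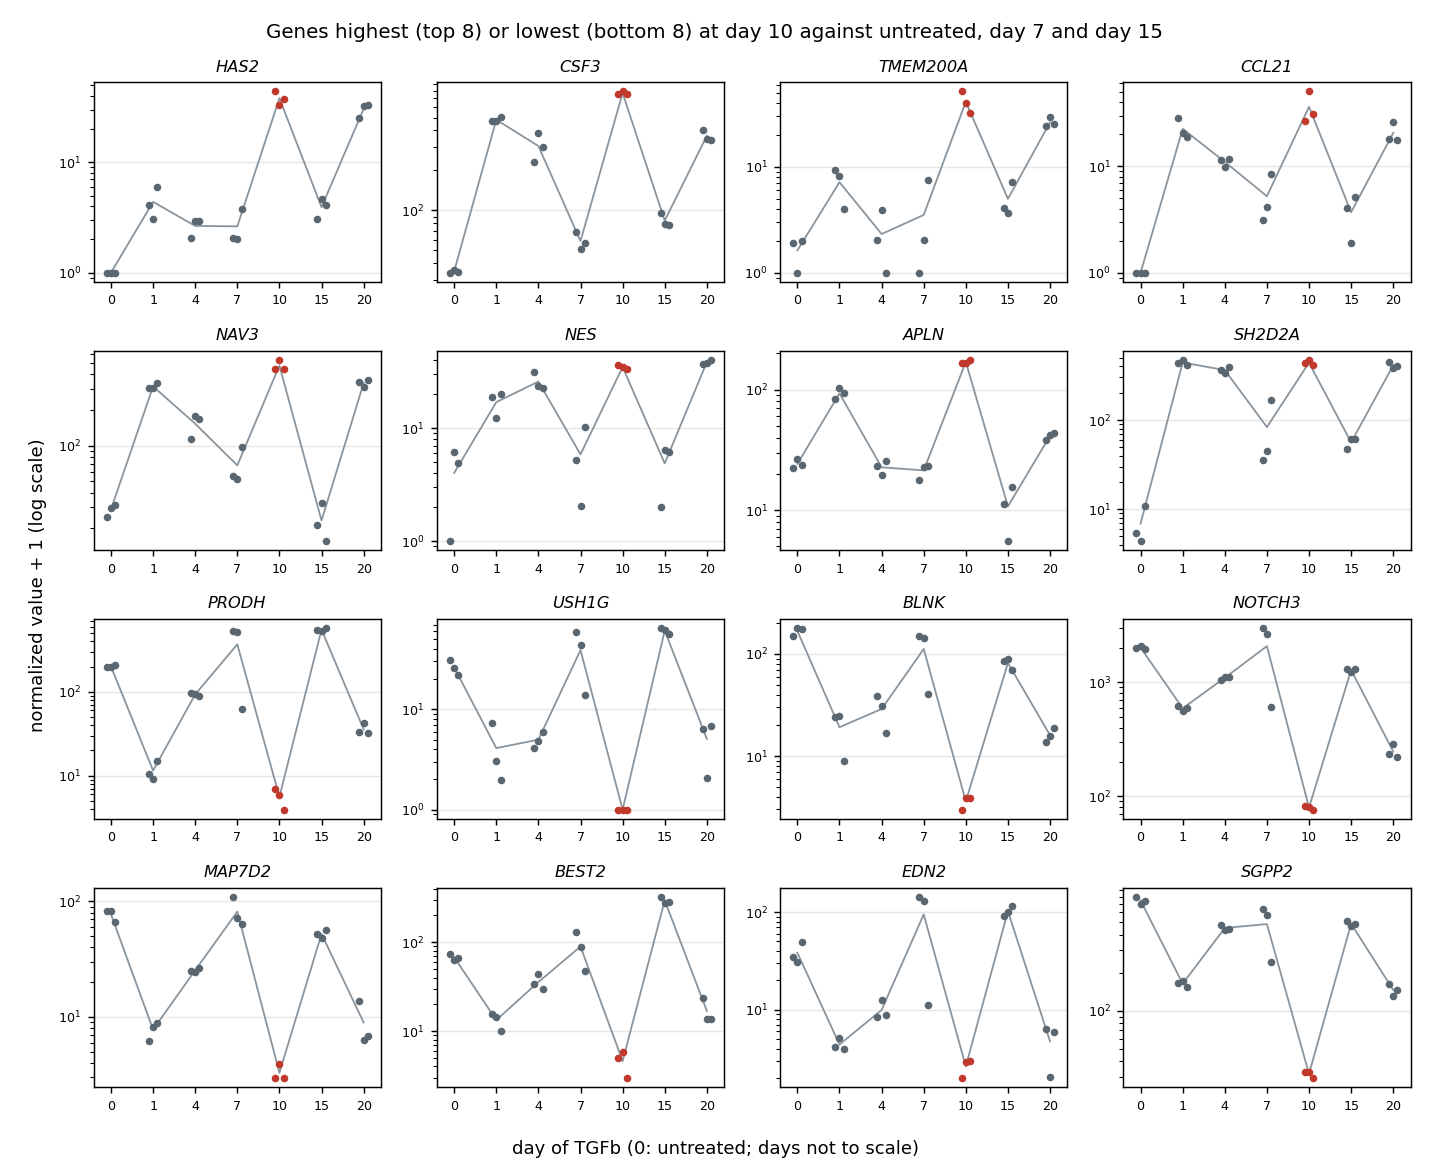
Normalized value plus 1 (log axis) of the 8 genes highest (upper rows) and the 8 lowest (lower rows) at day 10 against untreated, day 7 and day 15, by day of TGFβ, with 1 point per library (red at day 10) and a line through the means. In 7 of the 8 lower genes, all but EDN2, the day 10 libraries are the lowest of the series, and of the day 7 libraries the one numbered 3 lies nearest to day 10 in all 8.

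The gene lists varied in how d10 compared with its neighbours. The median log2 difference of DNA replication genes was 0.85 over d7 and 2.38 over d15, and that of mitosis genes 0.23 and 1.36. Keratins were lower at d10 by medians of -1.20 and -0.80, desmosome genes by -1.03 and -0.75 and p53 targets by -1.01 and -1.27, beside 0.02 and 0.02 over all genes. Interstitial collagens were at -0.70 and -0.81, while EMT factors were at 0.14 and -0.33. The d7 medians include d7 library 3. Days further away were closer to d10 in some lists. Against untreated cells, the median log2 ratio of desmosome genes was -0.55 at d10 and -0.72 at d20. That of keratins was -1.02 and -0.68. DNA replication genes were at 0.01 at day 1, 0.15 at d10 and -0.24 at d20, and p53 targets at -0.08, -0.12 and 0.38. These medians are descriptions, and the comparisons share the d10 libraries.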

How the data were processed

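RNA was extracted with Trizol from HMLE cells and sequenced on Illumina libraries. The authors deposited a normalized signal, their gene read counts divided by a size factor for each library and rounded to 2 decimals. The submitters' processing notes name STAR 2.7, Salmon 1.4 and hg19, and the annotation, strand setting and counting tool are not given in the sources used here. Whole reads came back from 100% of the values (within 0.05 reads). The members and gene lists were chosen with earlier results of these data known. Genes with a mean of at least 10 over the 6 libraries were tested with limma 3.58.1 in R 4.3.3 (lmFit, eBayes with trend) on log2(value + 1), a scale that understates changes of low genes, and Benjamini-Hochberg adjustment covered all genes tested. Contrasts with d7 and d15 used all 21 libraries and a mean of at least 10 over them. P-values measure the spread between libraries, with 18847917 to 22245237 recovered reads each, and a gene with at most 3 reads was taken as at the floor. Replicate pairs differed by more than counting noise. Named genes were the 12 largest increases and decreases whose mean reached 50 in either group, all regulators and cadherins, the 3 largest changes each way and the most abundant member of each other list, and the 8 genes highest and lowest against d0, d7 and d15; those outside this rule, such as CLDN7, BGN, ACTB, S100A2 and EEF1A1, were picked after their values were seen. Some genes that this rule names are not reported here. Alternatives were a pseudocount of 10, no filter, rescaled totals, quantile normalization, all libraries in the fit, edgeR 4.0.16 and DESeq2 1.42.0 on the recovered reads, and each library left out. On simulated data limma called 94 of 99 genes changed by 1 on the log2 scale and 100 of 100 changed by 2, and 12 unchanged genes. The simulation changed a small share of genes, as many up as down. It therefore does not cover the wide change and the higher d10 total of the real libraries. Figures were drawn with matplotlib 3.10.9. Columns of no sample of the series numbered 0.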

Additional observations from a re-analysis of the deposited data

Results flagged for a closer look

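For 13 of the genes named by the rule, d10 and a neighbouring day lay at least 2-fold from untreated cells in opposite directions. An adjusted p under 0.05 between the days was part of this selection, so passing that test was fixed in advance. The largest adjusted p was 1.65e-06, for EDN2 against d7 (limma on all 21 libraries). APLN, PRODH, USH1G, BEST2 and EDN2 had also been picked above as standing apart from d7 and d15. APLN was the gene higher at d10 and lower at d15, a difference of 4.11. All others were lower at d10 and higher on the other day. Against d15 the differences were -6.67 for PRODH, -6.10 for KDR, -6.06 for BEST2, -5.93 for USH1G, -5.29 for EDN2, -5.05 for CDKN1C, -4.49 for GDF15, -2.56 for SULF1, -2.22 for SEMA3B and -2.18 for AKR1C2, whose reads can be shared with its near copies. Against d7 they were -5.04 for KDR, -4.86 for IFI44L, -4.52 for EDN2, -3.85 for GPNMB, -3.76 for CDKN1C and -3.48 for GDF15. The third d7 library was the lowest at d7 for these 6 genes, and without it the differences were -5.79, -5.78, -5.72, -4.82, -4.36 and -4.35.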

How the results depend on the processing

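The counts of genes 2-fold higher and lower at d10 were 881 and 995, and 882 to 896 and 976 to 1009 with each of the 6 libraries left out in turn. They were 839 and 1066 with edgeR, 849 and 1048 with DESeq2, 800 and 750 with a pseudocount of 10, 931 and 850 with quantile normalization and 926 and 979 with all libraries in the fit. Without a filter on low values, when 18367 genes were tested, 1158 were higher and 1553 lower. After rescaling every library to 1 total, 3106 genes were higher and 7123 lower at any size, so that 30.4% of calls were higher in place of 54.2%, and at 2-fold the share went from 47% to 33.3%. Of the 2-fold calls, 677 higher and all 995 lower kept theirs after rescaling, 836 and 993 in edgeR and 847 and 992 in DESeq2. Rescaling lowered all log2 differences, so the lower calls could not fall under 2-fold by it. Log2 differences that turned negative after rescaling were those of CDH3 (-0.18), CTNNA1 (-0.094), DSG2 (-0.031), PKP4 (-0.097), CDC20 (-0.015), BUB3 (-0.020), PSMB10 (-0.045), HLA-C (-0.11), NDUFA9 (-0.14), PSAP (-0.13), PRDX1 (-0.010) and CD68 (-0.20). With quantile normalization those of CDH3 (-0.22), CTNNA1 (-0.097), DSG2 (-0.07), PKP4 (-0.053), CDC20 (-0.045), HLA-C (-0.078), SCD (-0.49), NDUFA9 (-0.0876), PSAP (-0.14) and PRDX1 (-0.017) turned negative. All of these genes had log2 fold changes of at most 0.29 before, and the cause was not tested beyond the shift of all genes given above. No paired analysis was possible because each day's 3 columns share one header. Genes of a few reads per library limit precision, and the origin of shared reads among gene copies was not tested.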
